A study of Mus musculus with 18 samples.

Results

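CLK:BMAL1 sites at the loci of 6 core clock genes (Dbp, Per1, Per2, Nr1d1, Cry1 and Cry2) in mouse liver were described from a deposited list of 3217 sites. A site was taken when the midpoint of its peak lay in a fixed mm9 window around 1 of the genes, and 22 of the 3217 sites met this rule, at 5 of the 6 loci. The livers came from adult C57BL/6 mice, aged 3 to 6 months per the labels, kept in cycles of 12 h light and 12 h dark. Chromatin crosslinked with formaldehyde was either sonicated or digested with micrococcal nuclease (MNase), and CLK-bound fragments were pulled down with a goat polyclonal antibody. The labels name 18 libraries in 6 groups of 3, at ZT06 and at ZT22, in hours after lights on. At each time there are CLK ChIP libraries of MNase-digested chromatin, CLK ChIP libraries of sonicated chromatin, and sonicated input made without antibody. No genetic change or drug is named for any group, and each group carries the labels WT28, WT29 and WT30. These are called mouse numbers 28, 29 and 30 here. What equal numbers at ZT06 and ZT22 share is not said. A liver is collected at only 1 time, so they are not read as 1 animal sampled at both. Each row of the list gives a site, its peak and 1 of 5 location classes, with no value per library, so the time of day cannot be read for a single site. The site identifiers bear the prefix Koike_CLKBMAL1, and whether the sites were called from these libraries is not said. The list names no genes, so a site is tied to a gene here by its window alone.

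CLK and BMAL1 are transcription factors that pair through their helix-loop-helix and PAS domains and bind E-boxes, short DNA elements with the core CACGTG. They switch on the Per and Cry genes, whose protein products then block CLK:BMAL1, and this delayed feedback gives the circadian rhythm. Nr1d1 encodes REV-ERB alpha, a nuclear receptor that represses Bmal1 in a second loop, and Dbp encodes a leucine-zipper factor that carries the rhythm to liver genes through D-boxes.

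Sequence before 1 start of each of 5 genes is shown, because their loci differ in the listed sites. The Per1 window had only intergenic sites less than 10 kb from a gene that is not named. The windows of Dbp, Nr1d1 and Cry2 had TSS-class sites, and that of Cry1 had no listed site. The second Per1 start, with no match to the motifs below, is not printed. Each stretch holds the 250 bases before an annotated start, from RefSeq on GRCm38.p6, a later build than that of the sites, so its positions cannot be set against theirs. Capitals mark every match to E-box CACGTG, which reads the same on both strands, to its variant CACGTT (read on the other strand as AACGTG), to D-box TTATGNAA and to AGGTCA (read on the other strand as TGACCT), the core element of nuclear receptors such as REV-ERB alpha.
Per1, chr11:69098699-69098948, plus strand: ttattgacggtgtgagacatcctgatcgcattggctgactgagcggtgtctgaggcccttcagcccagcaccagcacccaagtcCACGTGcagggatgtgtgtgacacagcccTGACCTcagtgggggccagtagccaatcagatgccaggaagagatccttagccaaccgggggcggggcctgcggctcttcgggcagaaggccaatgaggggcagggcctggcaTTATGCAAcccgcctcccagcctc
Dbp, chr7:45704997-45705246, plus strand: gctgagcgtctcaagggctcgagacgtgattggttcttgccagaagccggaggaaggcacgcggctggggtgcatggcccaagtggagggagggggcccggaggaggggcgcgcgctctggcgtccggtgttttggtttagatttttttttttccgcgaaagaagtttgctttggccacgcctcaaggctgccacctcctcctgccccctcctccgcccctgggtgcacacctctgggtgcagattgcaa
Nr1d1, chr11:98775378-98775627, minus strand: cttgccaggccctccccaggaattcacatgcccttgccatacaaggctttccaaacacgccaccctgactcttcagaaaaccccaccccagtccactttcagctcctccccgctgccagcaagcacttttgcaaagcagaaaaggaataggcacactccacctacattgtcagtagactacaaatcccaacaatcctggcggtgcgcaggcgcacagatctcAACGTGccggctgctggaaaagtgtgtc
Cry2, chr2:92434070-92434319, minus strand: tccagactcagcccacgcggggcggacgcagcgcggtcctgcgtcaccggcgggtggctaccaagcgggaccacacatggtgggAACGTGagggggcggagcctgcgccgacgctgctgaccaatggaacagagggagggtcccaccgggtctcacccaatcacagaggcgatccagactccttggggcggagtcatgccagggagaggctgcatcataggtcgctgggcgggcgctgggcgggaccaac
Cry1, chr10:85185055-85185304, minus strand: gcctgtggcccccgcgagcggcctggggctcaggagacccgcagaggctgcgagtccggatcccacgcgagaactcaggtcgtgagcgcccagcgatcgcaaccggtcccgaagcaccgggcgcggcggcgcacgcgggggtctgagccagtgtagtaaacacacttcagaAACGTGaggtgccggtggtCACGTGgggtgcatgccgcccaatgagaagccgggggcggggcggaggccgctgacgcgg

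Both strands were searched from 250 bases before to 50 bases after each start, for 6 starts of 5 genes; Per2 was not matched in the table used. The first of the Per1 starts had a CACGTG that begins at base 85 of the printed stretch and a D-box that begins 24 bases before the start, with a TGACCT between them, and the second had no match. Nr1d1 had an AACGTG 28 bases before the start, and Cry2 had an AACGTG at base 85 of its stretch. Cry1, the locus with 0 listed sites, had a CACGTG 60 bases and an AACGTG 79 bases before the start. Dbp, the locus of the first site in the list, had no match to any of the 4 motifs in its window. No matches overlapped each other. CACGTG was found in 7.15% of all 32851 RefSeq promoters of this length, CACGTT in 4.68%, the D-box in 3.38% and AGGTCA in 16.3%. A match is only a run of letters in this window, and elements farther from the start were not searched.

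The windows contained from 0 to 6 sites. Nr1d1 had 6, Per2 had 5, Dbp and Per1 had 4 each, Cry2 had 3 and Cry1 had 0. The windows differ in length, from 26 kb for Dbp to 74 kb for Cry1, so their counts were read against windows of the same length centred on every site of the list. The median count in such a window was 1 at each of the 6 lengths, which is the centring site itself. For the 28 kb of Nr1d1, 0.995% of all sites had 6 or more sites in their window. At the length used for Dbp the share with at least 4 was 4.04%, at that for Per1 it was 5.69%, at that for Per2 with at least 5 it was 4.57%, and at that for Cry2 with at least 3 it was 17.3%. These shares are a description and include the sites at the clock loci themselves.

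**Figure D1:**
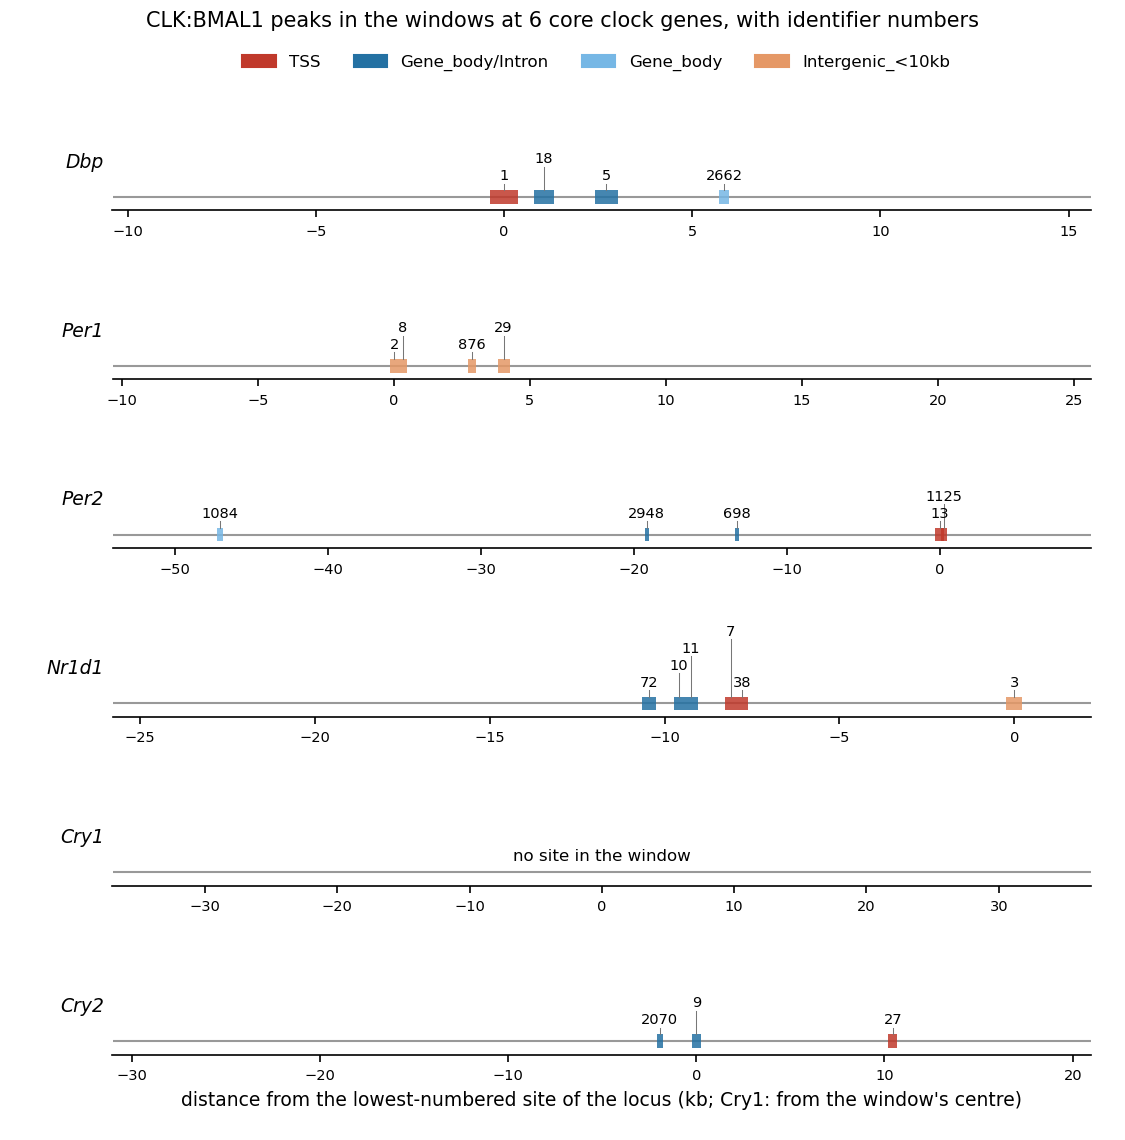
Map of the 22 peaks in the 6 windows, drawn to scale within each window. The horizontal axis is the distance in kb from the locus's lowest-numbered site (for Cry1, from the window's centre), colours give the location class and each peak bears its identifier number; Nr1d1 shows 6 peaks, Cry1 none.

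Each site carries a number in its identifier, from 1 to 3217, without gaps and in the order of the list. No label or header says what set this order. The sites at the clock loci stood mostly at its beginning: 8 of the first 10 numbers, 11 of the first 20, 14 of the first 50 and 15 of the first 100 lay in these windows. The 15 sites were 68.2% of the 22 sites, whereas the first 100 numbers made up 3.11% of the list. The next number after 72 was 698, so 15 was also the count up to 400. The remaining 7 sites were spread from number 698 to 2948. The median number was 22.5 at the clock loci and 1609 over all sites.

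**Figure D2:**
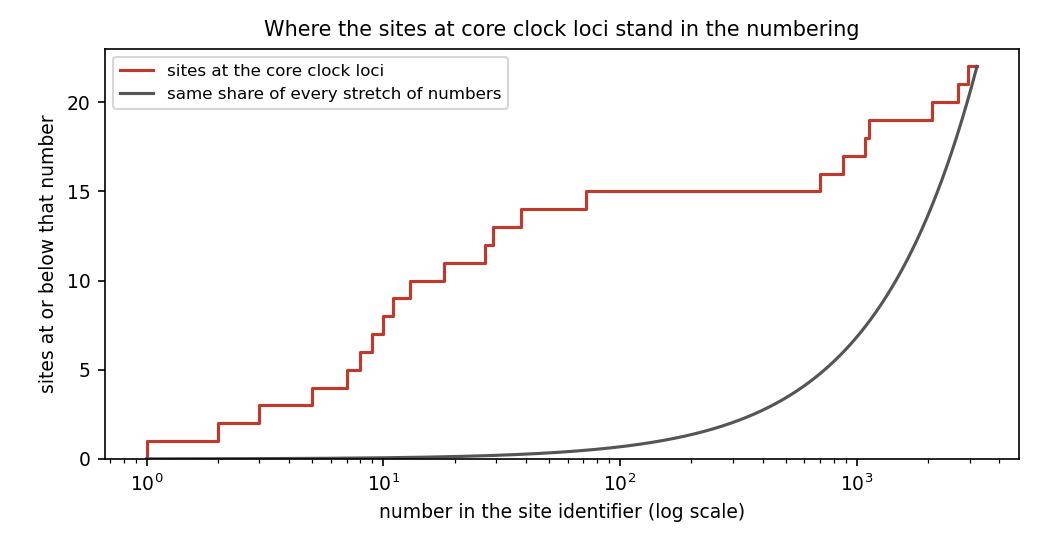
Count of sites at the core clock loci at or below each identifier number (log axis). The red line reaches 8 at number 10 and 15 at number 72, rises again at number 698 and ends at 22; the grey line is the count if the sites took the same share of every stretch of numbers.

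All 5 loci with a site had at least 1 among the first 20 numbers. The lowest numbers were 1 at Dbp, 2 at Per1, 3 at Nr1d1, 9 at Cry2 and 13 at Per2. At Nr1d1 all 6 sites were numbered 72 or lower, with a median of 10.5. Dbp, with a median of 11.5, Per1, with 18.5, and Cry2, with 27, each had 1 site far down the list. At Per2 only 1 site was among the first 100, and the locus median was 1084.

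At Per1, which encodes a repressor of CLK:BMAL1, all 4 sites were in the class of intergenic sites less than 10 kb from a gene. Site 2 (chr11:68908211-68908501) was 290 bp wide. Site 8 (chr11:68908511-68908830) followed after a gap of 10 bp and was 319 bp wide. The peaks form a nearly unbroken stretch, with midpoints 314.5 bp apart. Farther along came site 876 (chr11:68911071-68911360), narrower than 56.8% of all sites. Site 29 (chr11:68912161-68912611) was the widest at this locus, at 450 bp. From the first start to the last end the sites spanned 4400 bp, the shortest span of the 5 loci. None was in the TSS class, although the class depends on a gene annotation that no label or header names. The coding genes next to Per1 in RefSeq (GRCm38.p6) are Vamp2, of the vesicle fusion machinery, and Hes7, a helix-loop-helix repressor, and the gene to which the class refers was not resolved.

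Per2 encodes the other main PER repressor in liver, and its 5 sites were the most scattered, over 47759 bp. Site 13 (chr1:93355801-93356370), 569 bp wide and in the TSS class, was the only one with a low number. Site 1125 (chr1:93356181-93356600), also in the TSS class and 419 bp wide, overlapped it. These overlapping peaks, with midpoints 305 bp apart, were the closest pair at any of the loci. The other 3 sites lay on 1 side of this pair. Site 698 (chr1:93342691-93342960) was intronic, and 65.4% of all sites were wider. Site 2948 (chr1:93336791-93337050), intronic, was the narrowest of the 22, and 69.9% of all sites were wider. Site 1084 (chr1:93308841-93309220), in the gene body class, was 379 bp wide. It lay 27890 bp from the nearest other site, the largest such distance among the 22. Hes6, another helix-loop-helix gene, and Traf3ip1 are the coding genes next to Per2 in RefSeq (GRCm38.p6), so the gene body of site 1084 need not be that of Per2.

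Cry2, whose product is the other cryptochrome repressor beside CRY1, had 3 sites over 12789 bp. Site 9 (chr2:92263791-92264240) was intronic and 449 bp wide. Site 2070 (chr2:92261911-92262250), intronic as well and 339 bp wide, lay 1935 bp from it. Site 27 (chr2:92274221-92274700) was in the TSS class and 479 bp wide. RefSeq places the gene on the minus strand, so the intronic sites with lower coordinates lie on the transcribed side of the TSS-class site. Sites 9 and 27, with midpoints 10445 bp apart, were both among the first 100 numbers. The next coding genes in RefSeq (GRCm38.p6) are Mapk8ip1, a scaffold of kinase signalling, and Slc35c1, a transporter of GDP-fucose.

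Cry1 had 0 sites in its window of 74 kb. The nearest listed site below it was site 896 (chr10:84507001-84507260), classed as intergenic beyond 10 kb, 76869.5 bp outside the window. Above it the nearest was site 2945 (chr10:85379911-85380140) of the TSS class, 722025.5 bp outside. Widening the window by 50 kb on each side still gave 0 sites. The list shows only sites that were kept, so 0 here is the absence of a listed site and not a measure of CLK at Cry1.

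Nr1d1 had the largest number of sites. Site 72 (chr11:98634141-98634561), 420 bp wide, opened a run of 3 intronic peaks. Site 10 (chr11:98635071-98635331) was 260 bp wide. Site 11 (chr11:98635311-98635760) was 449 bp wide and overlapped site 10 by 20 bp. Beyond this run came the TSS-class peaks, next to each other. Site 7 (chr11:98636531-98636831) was 300 bp wide. Site 38 (chr11:98636841-98637181) began 10 bp after it and was 340 bp wide. The last, site 3 (chr11:98644571-98645021), was intergenic, less than 10 kb from a gene, 450 bp wide and 7785 bp from the midpoint of site 38. RefSeq puts Nr1d1 on the minus strand, where the intronic peaks lie downstream of the TSS-class peaks and site 3 upstream. Thra, which encodes a thyroid hormone receptor, overlaps Nr1d1 in RefSeq (GRCm38.p6), so the class of a peak may refer to either gene.

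The Nr1d1 window was the only one of the 6 with a listed site less than 10 kb outside its edges. Site 2622 (chr11:98616231-98616591), intronic and 360 bp wide, lay 2589 bp below it, and site 1098 (chr11:98650201-98650690), intergenic within 10 kb of a gene and 489 bp wide, lay 3445.5 bp above it. At the inner side, site 3 lay 2204 bp from the upper edge. With windows widened by 10 kb the count rose from 22 to 24, and by 50 kb to 25, through site 2538 (chr11:68876241-68876530) of the gene body class near Per1, 21614.5 bp outside.

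At Dbp, the 4 sites spanned 6340 bp. Site 1 (chr7:52960041-52960760) was in the TSS class and, at 719 bp, had the widest peak of all 3217 sites. Site 18 (chr7:52961201-52961730), intronic, was 529 bp wide, and 2.30% of all sites were wider. Site 5 (chr7:52962811-52963430), intronic, was 619 bp wide, and 0.311% of all sites were wider. Their midpoints were spaced by 1065 and 1655 bp. These 3 peaks were the widest at the 5 loci apart from site 13 at Per2. Site 2662 (chr7:52966111-52966381), in the gene body class, was 270 bp wide, and 64.2% of all sites were wider. Sphk2, a sphingosine kinase gene, overlaps Dbp in RefSeq (GRCm38.p6), and Rpl18, a ribosomal protein gene, is the next coding gene on the side of higher coordinates, so the gene behind each class at this locus was not resolved.

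Of the 22 sites, 9 were intronic, 6 were in the TSS class, 5 were intergenic within 10 kb of a gene and 2 were in the gene body class. That class is listed apart from the intron class, without a definition. The TSS class made up 27.3% (exact Clopper-Pearson 95% interval 10.7 to 50.2%, counting error only), against 18.1% of all sites, a share within that interval. The interval treats the 22 sites as independent, although TSS-class sites 13 and 1125 overlap and sites 7 and 38 nearly touch. Introns held 40.9% at the clock loci and 43.9% over all sites. Intergenic sites within 10 kb were 22.7% against 9.14%, and 4 of these 5 sites were at Per1. None of the 22 lay more than 10 kb from a gene, where 22.3% of all sites lay (the windows themselves were laid around genes). Sites in the TSS class were found at Dbp, Per2, Nr1d1 and Cry2.

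The peaks at the clock loci had a median width of 399 bp, with the widest at 719 bp, and all sites had a median of 309 bp. Lower numbers went with wider peaks in the list: Spearman's rho between number and width was -0.52 over the 3217 sites, given as a description. Width was therefore also read within the first 100 numbers. There the 15 sites at the clock loci had a median width of 449 bp and the 85 other sites also 449 bp, with middle quartiles of 329.5 to 504 bp and 389 to 519 bp. Among the sites numbered above 100, the upper quartile was 359 bp for the 7 at the clock loci and 369 bp for the 3110 others. The loci differed among themselves, with medians of 574 bp at Dbp, 449 bp at Cry2, 380 bp at Nr1d1, 379 bp at Per2 and 304.5 bp at Per1. Over the 22 sites rho was -0.44, likewise a description. Some low numbers belonged to narrow peaks: site 2 at Per1 was 290 bp wide, and sites 7 and 10 at Nr1d1 were 300 and 260 bp wide. Others at the same loci were wide, with 450 bp for site 3 at Nr1d1 and for site 29 at Per1.

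**Figure D3:**
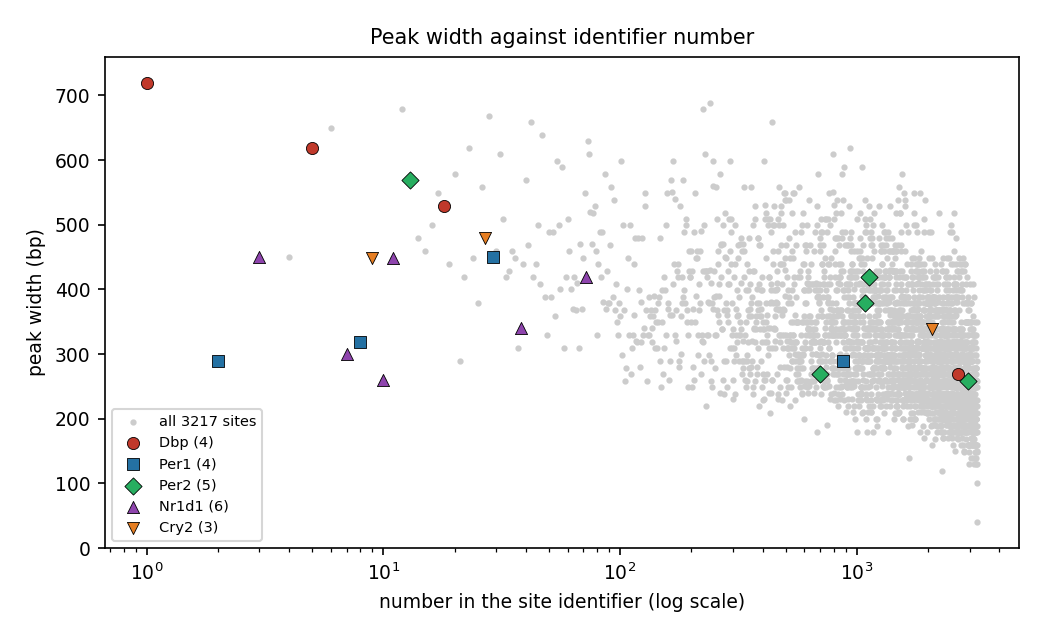
Peak width in bp against the number in the site identifier (log axis) for all 3217 sites in grey and the 22 sites at core clock loci in colour by locus. Dbp sites 1, 5 and 18 sit at 719, 619 and 529 bp, and Per1 site 2 and Nr1d1 sites 7 and 10 sit at 290, 300 and 260 bp.

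Sites at the clock loci lay close to one another. The distance from a midpoint to the nearest other one had a median of 1117.75 bp, with a range of 305 to 27890 bp, and over all sites the median was 44505 bp. Another site lay within 3 kb of 16 of the 22 (72.7%), against 19.6% of all sites. Within 10 kb these shares were 90.9% and 30.2%. At least 2 others within 3 kb were found for 11 of the 22 (50%) and for 4.88% of all sites. Spacing was also read within the first 100 numbers: of the 85 other sites among the first 100, 31.8% had another site within 3 kb, against 86.7% of the 15 at the clock loci. Their median distances to the nearest site were 12229.5 and 850 bp. Sites of 1 locus count each other as neighbours, so these shares are not 22 separate observations. Sites that share a window are also bound to be close.

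**Figure D4:**
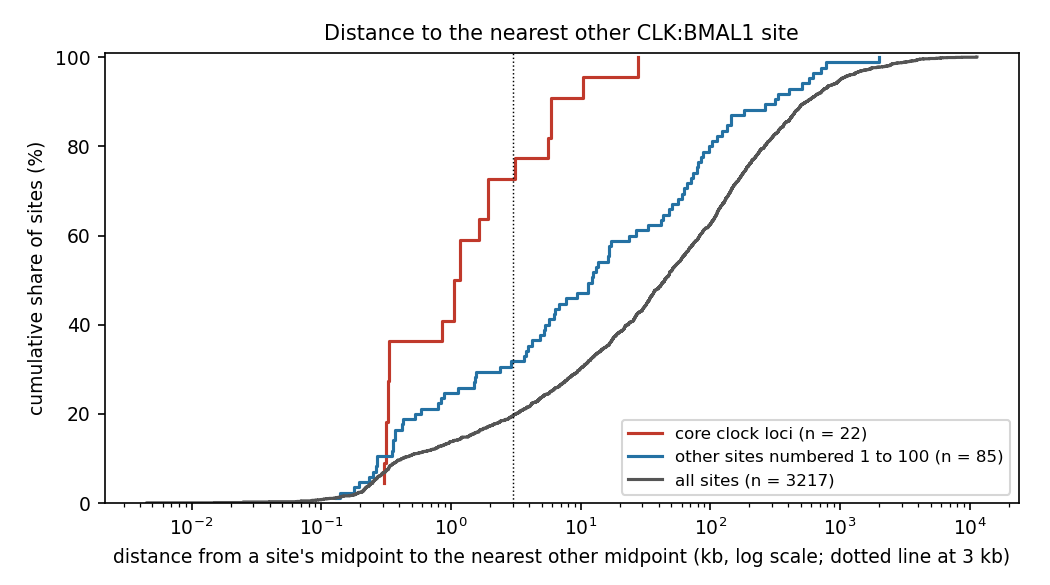
Cumulative share of sites (%) against the distance from a midpoint to the nearest other midpoint in kb (log axis), for the 22 sites at core clock loci, the 85 other sites among the first 100 numbers and all 3217 sites. At 3 kb, the dotted line, the lines stand at 72.7%, 31.8% and 19.6%.

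Of the 17 pairs of neighbouring sites within the 5 loci, 4 overlapped or were separated by at most 10 bp (23.5%). Pairs inside a window are bound to be close, so they were set beside the 829 neighbouring pairs of the whole list that lay no farther apart than the widest pair within the loci, 27890 bp, of which 16.5% overlapped or were separated by at most 10 bp. Over all 3197 neighbouring pairs, most of them farther apart, the share was 4.29%. Midpoint steps of up to 1 kb made up 29.4% of the 17 pairs and 29.1% of the 829. Steps of up to 3 kb made up 64.7% and 42.1%. The limit of 27890 bp comes from 1 pair at Per2, and the next widest step at the loci was 13260 bp. The 829 pairs also include the 17, so this comparison does not remove the closeness that the windows impose. The 4 pairs at the loci that overlapped or nearly touched were sites 2 and 8 at Per1, 13 and 1125 at Per2, 10 and 11 at Nr1d1, and 7 and 38 at Nr1d1. In 3 of these pairs both numbers were among the first 100, and at Per2 they were far apart. Every start in the list ends in the digit 1, so starts are resolved to 10 bp. Whether such a pair is 1 broad or 2 separate binding events cannot be told from the list.

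The mean profiles over sites give the scale on which such spacing can be read. They cover 3 kb around the midpoint, for all 3216 sites and for a top set of 400 sites chosen by a rule that no source states; which of the 22 sites are in the top set is not stated. In CLK ChIP on sonicated chromatin at ZT06, the top-set peak was 340 bp wide at 50% of its height above the flanks in mouse 28, 290 bp in mouse 29 and 310 bp in mouse 30. The flanks are positions at least 1000 bp from the midpoint. Of the 17 steps between neighbouring midpoints at the clock loci, 0 were shorter than the narrowest of these widths and 4 were shorter than the widest, the same 4 pairs that overlapped or nearly touched. In 8 of the 17 the step was under 1500 bp, so that the neighbour's midpoint falls inside the 3 kb region of the site.

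At the level of these mean profiles, CLK signal on sonicated chromatin was higher at ZT06. The signal within 100 bp of the midpoint relative to the flanks was 5.48, 5.71 and 6.13 at ZT06 in the libraries numbered 28, 29 and 30. At ZT22 it was 1.93, 1.28 and 3.06 in the same order of numbers. The groups did not overlap, and the library numbered 30 was the highest at each time. The difference was 1.56 ± 0.37 (SE) on the log2 scale (p = 0.1 by a two-sided exact permutation test, which cannot go lower with 3 libraries against 3), and 1.88 without the ZT22 library of mouse 30. The sonicated input had a mean ratio of 1.35 ± 0.03 at ZT06 (SD, n = 3), close to 1.29 ± 0.09 at ZT22. For CLK ChIP on MNase-digested chromatin the mean ratio was 1.04 ± 0.04 at ZT06 and 1.05 ± 0.21 at ZT22. There the mean was not higher at ZT06. These values are means over 400 sites, to which the 22 sites could contribute a small part, and they do not show the time of day at any single clock gene. Whether the sites were chosen by signal at either time is not stated, and such a choice would favour that time.

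**Figure D5:**
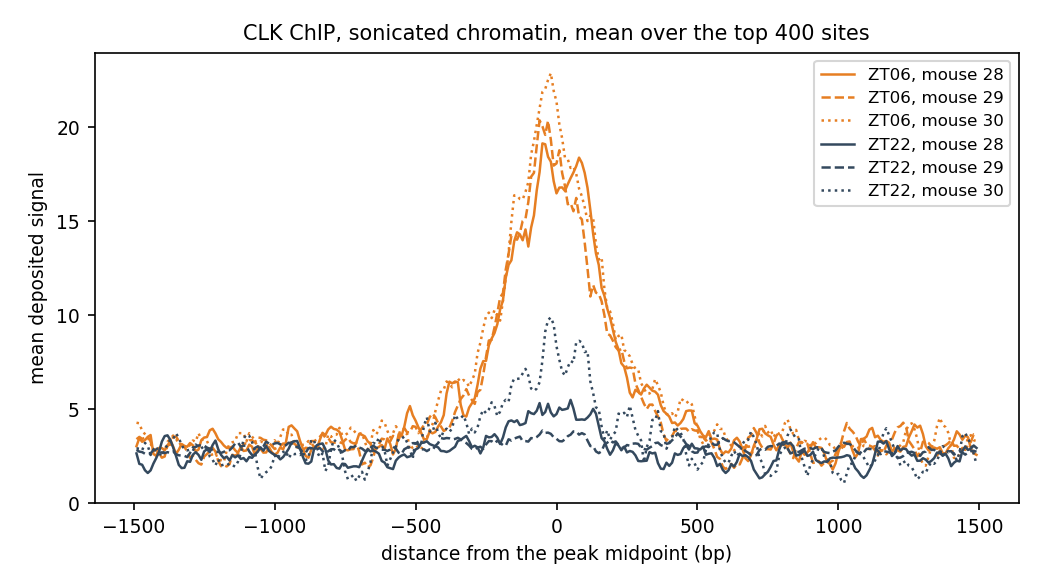
Mean deposited signal of CLK ChIP on sonicated chromatin over the top 400 sites against the distance from the peak midpoint in bp, 1 line per library. The 3 ZT06 lines (orange) have their maxima within 100 bp of the midpoint, with centre-to-flank ratios of 5.48 to 6.13, and the 3 ZT22 lines (dark) have ratios of 1.28 to 3.06, highest in mouse 30.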

How the data were processed

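The 22 sites and the lists were chosen with earlier results of these data known. The authors deposited a list of sites as genome positions and mean profiles in a unit of signal. Reads were handled with CASAVA 1.7 and Bowtie on mm9, per the submitters' processing notes. How sites were called, numbered and classed and how signal was scaled are not given in the sources used here. Nor is it given from which libraries the sites, whose identifiers bear the name Koike, were called. The depth of the libraries is unknown. Width is end minus start. Membership, widths, spacing and numbers were computed with Python 3.11.15 and pandas 2.3.3, and set beside the same values over all sites without a test, since sites are not replicates. Named were the 6 genes and all their sites, and the 3 other loci with the most neighbours within 25 kb. A spacing of 10 bp around the midpoint was assumed for the profiles, as 299 values over 3 kb imply. A centre-to-flank log2 ratio per library, with a pseudocount of 0, was compared by an exact permutation test; nothing says that livers of a group came from separate preparations. Profiles of 8 library names match no sample and were not used. Scripts were tested on simulated data. Alternatives were window sizes, loci left out, distance limits, profile windows, input correction and left-out mouse numbers.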

Additional observations from a re-analysis of the deposited data

How the results depend on the processing

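Of 38 alternative values, 37 stayed within the limits set for them, and the count of sites with another within 1 kb did not. The limits were wide, so this tally is no measure of stability. For the median number the limit was the standard deviation of the locus medians, which was larger than the median number itself. The TSS share was held against its own interval of 10.7 to 50.2%. The number of clock-locus sites with another site close by was 16 within 3 kb, 9 within 1 kb and 20 within 10 kb. Leaving out each locus in turn, or widening the windows by 10 kb, gave a median width of 359.5 to 420 bp and a median identifier number of 11 (without Per2) to 28. The time difference of the mean profiles stayed positive in all 11 alternatives. With a mouse number or the ZT22 library of mouse 30 left out it was 1.25 to 1.88, and over all sites 1.16. With the mouse number as a replicate block it was 1.56 with p = 0.25 (exact sign-flip test, the smallest that 3 pairs allow). Deviations along the profile had r from -0.13 to 0.13 between same-numbered libraries of the 2 times. Between differently numbered ones r ran from -0.21 to 0.16. These values cannot show whether the numbers are pairs, and the main comparison left them unpaired. The site list is 1 set without replicates or values per library, which limits its values to description.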

Other observations

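The 2 sites among the first 10 numbers that lay outside the clock windows were both in the TSS class, and are named here after their values were seen. Site 4 (chr3:95686051-95686501) was 450 bp wide and had 3 others within 1 kb. Site 6 (chr5:149806621-149807270) was 649 bp wide, and its nearest neighbour was 16630 bp away.

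Outside the clock windows, the locus with the most neighbours within 25 kb of a site was that of site 4, with 8 sites from 95669001 to 95709231 on chromosome 3, as many as Nr1d1 has with its window widened by 10 kb. Of these 8, 4 were in the TSS class and 4 intronic. Their numbers ran from 4 to 2937 with a median of 1451. Those of the 6 sites in the unwidened Nr1d1 window ran from 3 to 72. The widening adds sites 1098 and 2622 there, so at equal counts both loci hold high numbers. The next locus, on chromosome 7 from 71039621 to 71069820, held 7 intronic sites with a median number of 1489 and a median width of 260 bp. The third, on chromosome 15 from 88680681 to 88706511, held 7 sites with a median number of 686, of which 5 were more than 10 kb from a gene.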
